A study of Mus musculus with 4 samples.

Results

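The 10 genes described here encode the chain that carries an IL-4 or IL-13 signal from the macrophage surface to the nucleus. They were taken by name (Il4ra, Il2rg, Il13ra1, Jak1, Jak3, Tyk2, Stat6, Irs2, Ptpn6 and Ptpn1), and 10 of 10 were found among the 52550 Ensembl genes of the table. RNA-seq was done on bone marrow-derived macrophages (BMDMs), cells grown from mouse marrow for 7 days in 20 ng/mL of M-CSF, of wild-type (WT) or OGT-knockout (KO) genotype. OGT is the enzyme that places single N-acetylglucosamine sugars on nuclear and cytoplasmic proteins. All 4 groups shared the M-CSF culture, and the polarising treatment was 20 ng/mL of IL-4 over 24 h. All samples carry the same treatment label, and those of 0 h were taken, by their time, to have had no IL-4. The groups were WT at 0 h, WT at 24 h, KO at 0 h and KO at 24 h, with 1 library each. The strain, sex and age of the animals, the allele or Cre behind the knockout and any pooling of animals were not given in the sources used here.

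With 1 library per group there is no replicate error, no test and no p-value, and each difference compares 2 libraries. There is no 24 h culture in the absence of IL-4 among the labels, so IL-4 and time in culture cannot be told apart. Levels are in FPKM, fragments scaled to transcript length and library size, which allows levels of different genes to be compared. Differences are log2 ratios of FPKM + 1, a scale that understates differences of genes near 1 FPKM. Genes reaching 1 FPKM in at least 1 library of a comparison were kept, and a difference of at least 2-fold on that scale was counted, with 1.5-fold as a second limit. All 10 members were kept in all 5 comparisons. Positions are on GRCm38 (GENCODE M21). Ogt transcripts stood at 27.4 and 29.8 FPKM in WT and at 14.2 and 14.5 in the KO, at 0 h and 24 h in that order. The KO therefore kept 51.8% and 48.5% of the WT value, and which part of the gene was deleted was not given in the sources used here. All 7 macrophage markers described were above 1 FPKM in every library. Their levels were not all steady, since 4 of 7 were past 2-fold lower at 24 h in WT and 5 of 7 in the KO. Of all kept genes, 6.26% were past 2-fold lower in WT and 5.99% in the KO.

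IL-4 binds the receptor chain IL-4Rα, encoded by Il4ra. IL-4Rα then pairs with the common gamma chain (Il2rg) to form the type I receptor, or with IL-13Rα1 (Il13ra1) to form the type II receptor, which also answers IL-13. JAK1, JAK3 and TYK2 are the tyrosine kinases attached to these chains, with JAK3 on the gamma chain and TYK2 on IL-13Rα1. They phosphorylate the receptor tail, where the transcription factor STAT6 and the adaptor IRS2 dock. SHP-1 (Ptpn6) and PTP1B (Ptpn1) are tyrosine phosphatases that limit this signal. In macrophages the pathway is best known for driving alternative activation.

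Windows of bases just before the RefSeq start site were read for all 10 genes (GRCm38.p6). Shown here are Il4ra, Il13ra1 and Ptpn6, the members that stood more than 1.5-fold lower at 24 h of IL-4 in both genotypes, and Stat6, the member that varied least. They lie at chr7:125552021-125552119 (+ strand, Il4ra), chrX:36111858-36112107 (+, Il13ra1), chr6:124738715-124738959 (−, Ptpn6) and chr10:127642736-127642985 (+, Stat6). Bases inside GENCODE exons of the gene were left off, which shortened the Il4ra window to 99 bases and that of Ptpn6 to 245. Capitals mark GGGCGG or its complement CCGCCC, the GC box, and GAGGAA or its complement TTCCTC, a core bound by ETS factors such as PU.1.
Il4ra: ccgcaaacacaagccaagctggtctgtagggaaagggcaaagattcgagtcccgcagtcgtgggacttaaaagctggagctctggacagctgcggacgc
Il13ra1: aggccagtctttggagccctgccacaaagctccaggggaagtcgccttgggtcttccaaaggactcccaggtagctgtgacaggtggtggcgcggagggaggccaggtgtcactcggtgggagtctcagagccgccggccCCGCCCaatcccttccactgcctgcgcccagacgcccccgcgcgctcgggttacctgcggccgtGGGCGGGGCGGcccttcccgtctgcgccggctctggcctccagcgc
Ptpn6: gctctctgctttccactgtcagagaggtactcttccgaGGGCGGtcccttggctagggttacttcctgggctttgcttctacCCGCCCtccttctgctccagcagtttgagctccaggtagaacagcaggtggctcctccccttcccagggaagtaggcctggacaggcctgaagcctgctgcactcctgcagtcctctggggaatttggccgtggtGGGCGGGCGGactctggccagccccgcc
Stat6: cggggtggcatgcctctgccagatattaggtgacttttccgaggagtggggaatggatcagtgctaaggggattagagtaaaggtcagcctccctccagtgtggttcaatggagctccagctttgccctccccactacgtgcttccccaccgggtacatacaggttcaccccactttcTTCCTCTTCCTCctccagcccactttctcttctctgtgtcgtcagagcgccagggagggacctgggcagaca
No window of the 10 members, taken over the full 250 bases, held TTC and GAA separated by 4 bases of any kind, the spacing that STAT6 prefers, which 5.85% of 32851 mouse windows of that length hold. TTCNNNGAA, the spacing bound by most STATs, was likewise in 0 of 10 windows against 7.02% of all. Both strings read the same on either strand, and 1 base may count toward more than 1 motif. The GC box was in 8 of 10 windows, against 32.7% of all windows, both over the full 250 bases. There were 5 copies before Ptpn6, of which 4 are whole in the stretch shown, and 3 before Il13ra1. The copies of Il4ra, Jak1 and Ptpn1 lie past the first base of those genes' GENCODE exons, so not upstream of the annotated gene. For Tyk2 and Irs2, which also held the box, the bases just after the RefSeq start were not found in a GENCODE transcript of the gene. The longest runs of capitals before Il13ra1 and Ptpn6 are overlapping copies, and that before Stat6 is a pair placed end to end. The stretch shown for Il4ra holds no whole copy of either motif. GAGGAA was in 1 of 10, that of Stat6 with 2 copies, against 23.3% of all. The 10 windows had a median GC content of 60.4%, from 49.2% (Il2rg) to 75.2% (Ptpn1), and all mouse windows had a median of 52.4%. The GC box is itself made of G and C, so its count and the GC content are not separate observations. The GC box and GAGGAA were chosen for search after the values were seen.

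**Figure D1:**
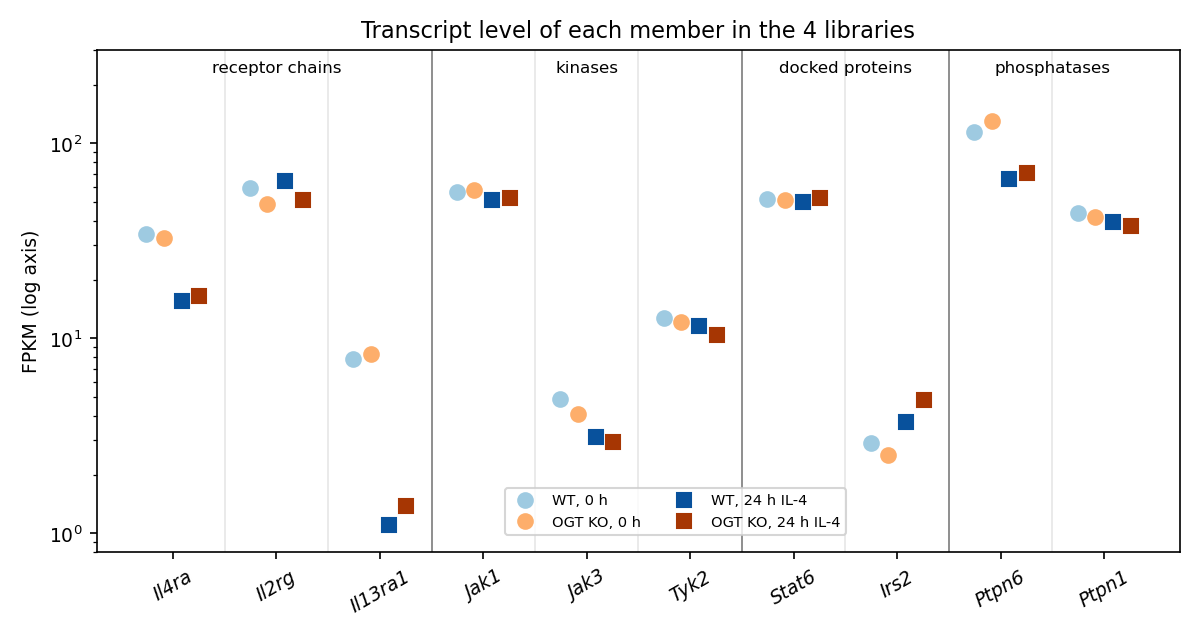
FPKM (log axis) of the 10 members, grouped by role, in the 4 libraries; each point is 1 library, circles are 0 h and squares 24 h of IL-4. Il4ra, Il13ra1 and Ptpn6 have both squares well below both circles, and Stat6 lies between 50.2 and 52.3 in all 4 libraries.

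Of the members, Il13ra1 and Il4ra differed most between 0 h and 24 h. On the FPKM + 1 scale, Il13ra1 was 4.20-fold lower at 24 h of IL-4 in WT and Il4ra was 2.13-fold lower. Il2rg, the third chain, was 1.09-fold higher. That scale understates the difference of Il13ra1, whose FPKM at 24 h was 14.1% of that at 0 h in WT. In all 2 of 10 members were thus past 2-fold lower in WT, where 6.26% of the 11689 kept genes were, and 0 of 10 were past 2-fold higher, where 4.77% were. None was past 1.5-fold higher either, against 13.3% of kept genes. At the 1.5-fold limit 3 of 10 were lower, with Ptpn6 as the third, against 13.4% of kept genes. The median of the members was −0.13 and that of all kept genes was 0.022. In the KO, 1 of 10 members, Il13ra1, was past 2-fold lower, against 5.99% of 11577 kept genes, and 0 of 10 were past 2-fold higher, against 5.16%. Il4ra was 1.92-fold lower there on the FPKM + 1 scale. The same 3 members were past 1.5-fold lower there (13.4% of kept genes), and 1, Irs2, was past 1.5-fold higher (13.8%). The KO median was −0.17 against 0.030 for all kept genes. Il4ra lay close to the 2-fold limit: it came to −0.94 in WT with a pseudocount of 5 and to −1.02 in the KO with libraries rescaled to a common total. With a pseudocount of 5 Il13ra1 came to −1.07 in WT and −1.06 in the KO, still past 2-fold, and Irs2 in the KO came to 0.39, under 1.5-fold.

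Il13ra1 (ENSMUSG00000017057, chromosome X, 36112110 to 36171259, + strand), the chain that makes the type II receptor, was measured at 7.84 FPKM in WT and 8.34 in the KO at 0 h. At 24 h it was at 1.10 in WT and 1.38 in the KO. Both 24 h libraries were low and both 0 h libraries high, with no overlap between times. Jak1, Tyk2 and Ptpn1, which differed little, did not overlap between times either. The share of all genes without such overlap was not counted, so its absence says little by itself. The 24 h value of Il13ra1 was 14.1% of the 0 h value in WT and 16.6% in the KO. On the log2 scale the differences were −2.07 and −1.97. Counted from the lowest, it ranked 108 of 11689 kept genes in WT and 135 of 11577 in the KO.

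The low value rests on few fragments. The depth was estimated from the smallest steps in the values, which put 40.0 to 43.8 fragments on a transcript of 2 kb at 1 FPKM in the 4 libraries. By that estimate Il13ra1 had about 637 and 619 fragments at 0 h and 87.1 and 104 at 24 h, WT first, the lowest of the members. Counting error alone would then place the WT difference between −2.26 and −1.88 (95% interval). Intervals of this kind cover counting error only and say nothing of variation between cultures.

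Il4ra (ENSMUSG00000030748, chromosome 7, 125552120 to 125579474, + strand), the chain common to both receptors, stood at 34.4 FPKM in WT and 32.6 in the KO at 0 h. After 24 h of IL-4 it stood at 15.6 and 16.5. Here too the times did not overlap, while the genotypes lay close together at each time. The 24 h value was 45.3% of the 0 h value in WT and 50.6% in the KO, or −1.09 and −0.94 on the log2 scale. The KO value thus lay just inside 2-fold and the WT value just outside it. Antisense gene Gm44876 shares 9.51% of the exon bases of Il4ra and was at 0.011 FPKM or less.

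Il2rg (ENSMUSG00000031304, chromosome X, 101264378 to 101268255, − strand), the gamma chain of the type I receptor, was at 58.7 FPKM in WT and 48.6 in the KO at 0 h. At 24 h it was at 64.0 in WT and 51.2 in the KO. It was the one receptor chain whose libraries split by genotype and not by time. The KO held 82.8% of the WT level at 0 h and 80.1% at 24 h, which came to −0.27 and −0.32 on the log2 scale. Differences of this size were common, since 28.1% of kept genes at 0 h and 20.8% at 24 h were at least as far from 0. The IL-4 differences were smaller, at 0.12 in WT and 0.074 in the KO. T cell markers, which mark cells rich in Il2rg, summed to 1.15 and 0.43 FPKM in WT and to 0 and 0.062 in the KO, at 0 h and 24 h. Markers of basophils and mast cells summed to 7.46 and 4.66 in WT and to 1.78 and 0.93 in the KO. Neutrophil markers, far more abundant, summed to 3306 and 1040 in WT and to 2114 and 679 in the KO. The part of any of these cells in the lower Il2rg value was not tested. A predicted gene on the same strand, Gm20489, covers 30.5% of the Il2rg exon bases and stood at 0 to 0.21 FPKM, so little signal was assigned to it.

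Set against one another per length, Il2rg made up more of the chain transcripts at 24 h. Il2rg transcripts were 7.49 times those of Il13ra1 in WT at 0 h and 57.9 times at 24 h. In the KO the ratio went from 5.83 to 37.1. Il4ra was at 0.59 of Il2rg in WT and 0.67 in the KO at 0 h, and at 0.24 and 0.32 at 24 h. Of the summed FPKM of the 3 chains, Il13ra1 made up 7.76% and 9.31% at 0 h and 1.37% and 2.00% at 24 h, WT first. These are transcript levels, and the receptor proteins were not measured.

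**Figure D2:**
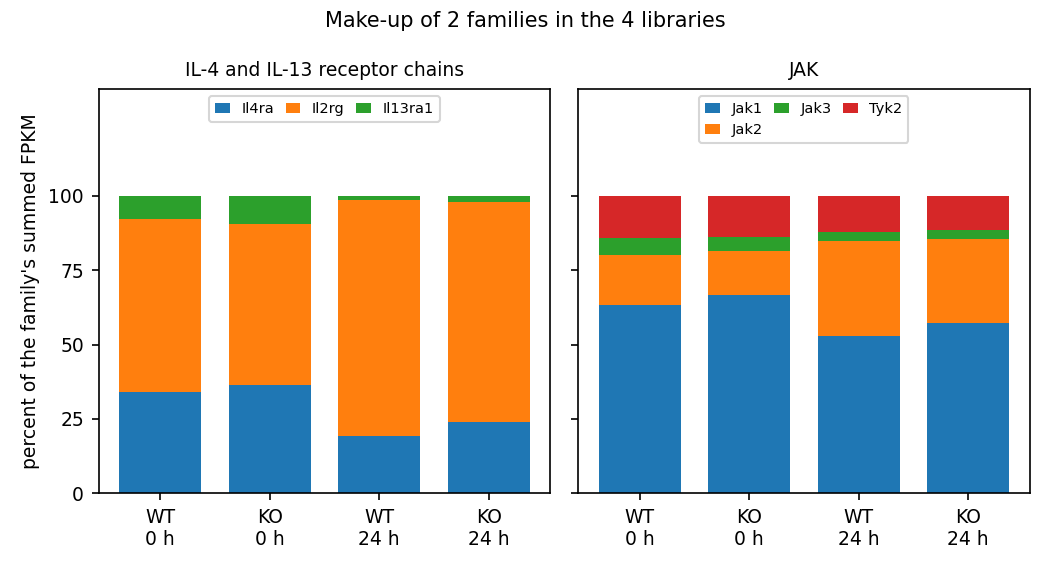
Share of each gene in the summed FPKM of the 3 receptor chains and of the 4 JAK genes, as stacked bars in percent, for the 4 libraries. At 24 h of IL-4 the bars hold more Il2rg and more Jak2 than at 0 h in both genotypes.

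The kinase genes differed less. Jak1 (ENSMUSG00000028530, chromosome 4, 101152367 to 101265282, − strand), the kinase bound to IL-4Rα, was at 56.1 and 57.8 FPKM at 0 h and at 51.2 and 52.3 at 24 h, WT first. Both 24 h values lay slightly under both 0 h values (log2 −0.13 in WT and −0.14 in the KO). The genotypes differed by 0.043 at 0 h and 0.028 at 24 h, within the estimated counting error.

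Jak3 (ENSMUSG00000031805, chromosome 8, 71676296 to 71690575, + strand) encodes the kinase of the gamma chain, best known from lymphocytes. Its levels were 4.90 FPKM in WT and 4.09 in the KO at 0 h, and 3.13 and 2.94 at 24 h. Both 24 h libraries were lower than both 0 h ones (−0.51 in WT, −0.37 in the KO), and neither difference reached 1.5-fold on the FPKM + 1 scale. The WT difference depended on that scale. It came to −0.63 with a pseudocount of 0.1 and to −0.65 with libraries rescaled to a common total, both past 1.5-fold. All 6 T cell markers and all 4 NK cell markers looked at, among them Cd3e and Ncr1, were under 1 FPKM in every library. Their summed levels were 0 to 1.15 FPKM for T cells and 0.06 to 0.09 for NK cells. Insl3, which lies on the same strand and shares 7.55% of the Jak3 exon bases, was at 0 to 0.13 FPKM.

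Tyk2 (ENSMUSG00000032175, chromosome 9, 21104068 to 21131243, − strand), the kinase of IL-13Rα1, was at 12.7 and 12.1 FPKM at 0 h and 11.6 and 10.5 at 24 h, WT first. The differences of −0.12 in WT and −0.19 in the KO were small. Tyk2 therefore did not follow Il13ra1, whose product it serves, in the size of its difference. The WT difference lay within the counting error estimated from the shortest Tyk2 transcript (1662 bp). The longest (4828 bp) would give a smaller error. Per length, Jak1 was 11.5 to 17.8 times Jak3 over the 4 libraries, and at least 4.41 times Tyk2.

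Jak2, the remaining JAK gene and no member of the chain, was higher at 24 h. It stood at 15.1 and 12.8 FPKM at 0 h and at 31.2 and 25.9 at 24 h, WT first, just under 2-fold on the FPKM + 1 scale. Its share of JAK transcripts was 17.0% and 14.7% at 0 h and 32.1% and 28.3% at 24 h, while that of Jak1 was 63.2% and 66.7%, then 52.7% and 57.1%. Jak2 was outside the rule for named genes and was chosen after its value was seen.

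Stat6 (ENSMUSG00000002147, chromosome 10, 127642986 to 127660957, + strand), the transcription factor that IL-4 activates, was the steadiest member. It was at 51.9 FPKM in WT and 51.1 in the KO at 0 h, and at 50.2 and 52.3 at 24 h. The highest library was 1.04 times the lowest. Its 4 differences between libraries of the same time or genotype ran from −0.047 to 0.057, and the 95% counting interval of each included 0. Nab2, whose exons share 40 bases with Stat6 on the opposite strand, was at 16.3 to 25.7 FPKM; the shared bases are 0.91% of the Stat6 exons.

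Some other STAT genes were lower at 24 h beside this level. Stat2, which acts in type I interferon signalling, was at 24.7 FPKM and then 13.0 in WT (−0.87) and at 31.8 and then 10.8 in the KO (−1.47). Stat4, the factor best known from IL-12, was at 2.31 and then 0.20 FPKM in WT (−1.46), and at 1.46 and then 0.23 in the KO, just under 2-fold on the FPKM + 1 scale.

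Irs2 (ENSMUSG00000038894, chromosome 8, 10984681 to 11008458, − strand) encodes the adaptor that links the receptor to PI3-kinase. It was at 2.90 FPKM in WT and 2.53 in the KO at 0 h, and at 3.71 and 4.85 at 24 h. Both 24 h values were above both 0 h values, and the KO at 24 h was highest. The 24 h value was 128% of the 0 h value in WT and 191% in the KO, or 0.27 and 0.73 on the log2 scale. Irs2 was the member with the largest gap between the genotypes in its IL-4 difference, at 0.45. By the fragment estimate, counting error alone would place that gap between 0.25 and 0.66. Of 12002 kept genes 93.8% had a lower value of this gap, and 11.2% had a gap at least as far from 0. Irs2 was singled out as the member with the largest gap, so its place among all genes says little by itself. The gap came to 0.56 with a pseudocount of 0.1 and to 0.25 with a pseudocount of 5. The other insulin receptor substrate, Irs1, stayed at 0.05 FPKM or less, so Irs2 was the one of the pair above 1 FPKM.

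Ptpn6 (ENSMUSG00000004266, chromosome 6, 124720707 to 124738714, − strand), which encodes the haematopoietic phosphatase SHP-1, was the most abundant member in all 4 libraries. It was at 115 FPKM in WT and 130 in the KO at 0 h, and at 65.3 and 70.2 at 24 h. The times did not overlap, and the KO was the higher of the pair at each time (log2 0.17 at 0 h and 0.10 at 24 h). The 24 h value was 56.9% of the 0 h value in WT and 54.1% in the KO (−0.80 and −0.88).

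Ptpn1 (ENSMUSG00000027540, chromosome 2, 167932057 to 167979385, + strand), which encodes the ubiquitous phosphatase PTP1B, was at 43.7 and 42.1 FPKM at 0 h and 39.6 and 37.9 at 24 h, WT first. These libraries lay within 1.16-fold of one another. The IL-4 differences were −0.14 in WT and −0.15 in the KO. Ptpn6 was accordingly 2.63 times Ptpn1 in WT and 3.08 times in the KO at 0 h, and 1.65 and 1.86 times at 24 h. Together the members summed to 388 and 389 FPKM at 0 h and 305 and 300 at 24 h, WT first.

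The order of the levels was similar in the 4 libraries. Counted from the highest, Ptpn6 had rank 1, Ptpn1 rank 5, Il4ra rank 6, Tyk2 rank 7 and Jak3 rank 9 in each. Ranks 2 to 4 were held by Il2rg, Jak1 and Stat6, with Il2rg at rank 2 in WT and rank 4 in the KO. Jak1 and Stat6 were neighbours that differed little, both standing at 52.3 FPKM in the KO at 24 h. The lowest place was held by Irs2 at 0 h and by Il13ra1 at 24 h.

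**Figure D3:**
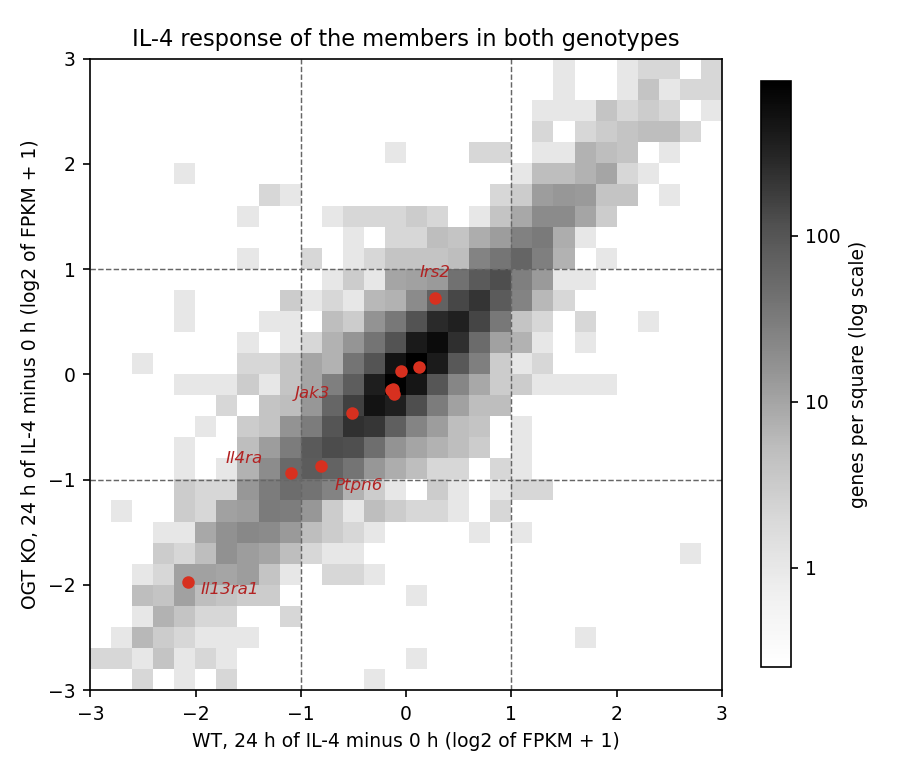
IL-4 difference (24 h minus 0 h, log2 of FPKM + 1) in WT on the x axis and in the KO on the y axis; red points are the 10 members, grey squares count all genes kept in both and dashed lines mark 2-fold. Il13ra1 lies at −2.07 and −1.97, Irs2 lies above the others at 0.27 and 0.73, and the 5 unlabelled members lie near 0; genes beyond 3 on either axis are outside the frame.

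Markers of other cells, and of macrophages, differed between times as well. The sum over 8 neutrophil markers, in FPKM, was 3306 in WT and 2114 in the KO at 0 h, and 1040 and 679 at 24 h. Of these S100a9 was the most abundant, at 1769 and 1084 FPKM at 0 h, while Ly6g stayed under 1 FPKM. Neutrophils also express Ptpn6, and the part of such cells in the lower values of Ptpn6, Il4ra and Il13ra1 at 24 h was not tested. In bulk RNA fewer cells of a type and less RNA per cell cannot be told apart. The 7 macrophage markers summed to 18475 and 15419 FPKM at 0 h and 6314 and 6337 at 24 h, with a median difference of −1.22 in WT and −1.44 in the KO. Among them Adgre1 was at 1150 and then 361 FPKM in WT, Fcgr1 at 172 and then 35.7, Mertk at 67.9 and then 28.5, and Lyz2 at 15193 and then 4246. In the KO these 4 were also past 2-fold lower at 24 h, as was Itgam, at 109.6 and then 31.1. Csf1r (−0.32 in WT, −0.28 in the KO) and Cd68 (−0.064 and −0.039) differed less. The part of these shifts in the lower Il4ra, Il13ra1 and Ptpn6 values was not tested. Of 5 B cell markers 4 were under 1 FPKM in every library, the exception being Cd79b at 2.93 to 13.7 FPKM. Basophil and mast cell markers summed to 0.93 to 7.46 FPKM, dendritic cell markers to at most 2.71 and fibroblast markers to 4.63 to 12.7.

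The next question was whether the chain differed between the genotypes, without and with IL-4. The KO libraries kept 51.8% and 48.5% of the WT Ogt transcript level at 0 h and 24 h. OGT protein was not measured here, so the extent of its loss in these cells is not known from these data. No member was past 2-fold between genotypes at 0 h, where 1.75% of 11480 kept genes were, or at 24 h, where 1.46% of 11302 were. None reached 1.5-fold either, against 6.11% and 5.39% of kept genes. The median of the members was −0.060 at 0 h and 0.043 at 24 h, beside −0.052 and −0.045 for all kept genes. The largest differences at 0 h were those of Il2rg (−0.27), Jak3 (−0.21) and Ptpn6 (0.17). At 24 h they were those of Il2rg (−0.32), Irs2 (0.31) and Il13ra1 (0.18). Il2rg was thus lower in the KO at both times by a similar amount, and Ptpn6 higher at both. The 95% counting interval included 0 for 6 of 10 members at 0 h and 7 of 10 at 24 h. For Tyk2, which is among them at both times, the interval rests on its shortest transcript. For Il2rg it ran from −0.36 to −0.18 at 0 h and from −0.40 to −0.23 at 24 h. A spread between cultures of this size cannot be told apart from a genotype difference with 1 library per group.

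With each library rescaled by its median ratio, the genotype differences at 0 h moved up, and those of Stat6 (−0.021 to 0.053), Ptpn1 (−0.055 to 0.018) and Tyk2 (−0.065 to 0.0037) changed sign. Il4ra kept its sign at 0 h but came to −0.0026. The direction between genotypes at 0 h is therefore not set for Stat6, Ptpn1 and Tyk2. Il2rg stayed lower and Ptpn6 stayed higher in the KO under every setting tried. The IL-4 difference of the KO minus that of WT was past 2-fold for 0 of 10 members, against 2.43% of 12002 kept genes. It was past 1.5-fold for 0 of 10, against 6.94%. Its values ran from −0.075 (Tyk2) to 0.45 (Irs2), with Il4ra at 0.15 and Jak3 at 0.14.

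**Figure D4:**
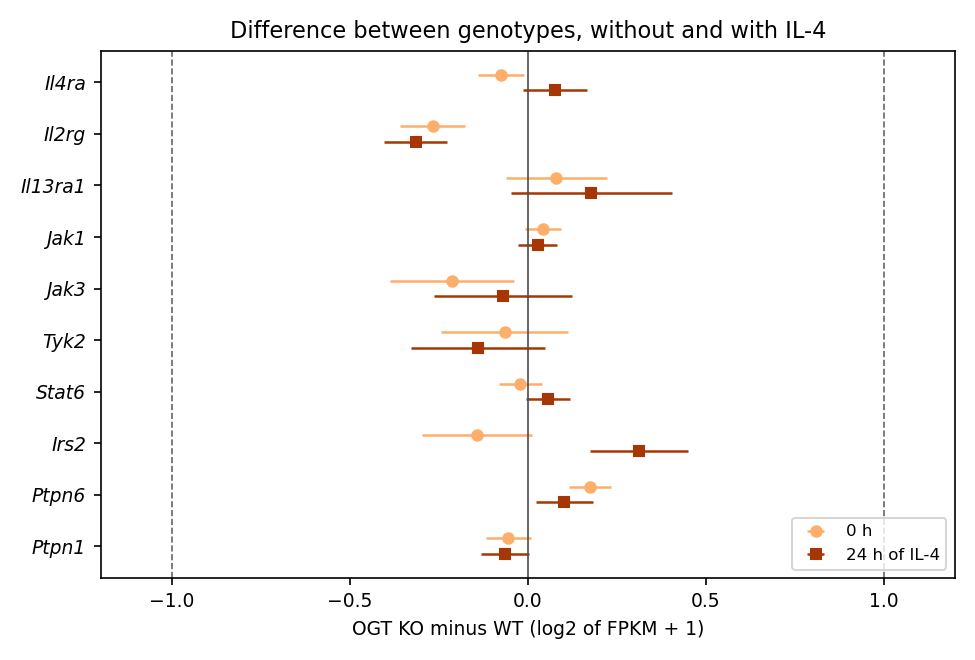
KO minus WT difference (log2 of FPKM + 1) of each member at 0 h (circles) and at 24 h of IL-4 (squares); bars are 95% intervals for estimated counting error alone and dashed lines mark 2-fold. All points lie between −0.32 and 0.31, with Il2rg below 0 at both times.

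The genes around the chain were described with lists, and the counts below stand beside the background shares given above. Transcripts of the ligands were low. Il4 was at 0.34 to 0.95 FPKM, Il13 was listed at 0, and the decoy receptor gene Il13ra2 was at 0 to 0.06. In the IRS and PI3-kinase list 21 of 22 genes were kept, 2 were past 2-fold lower in WT and 0 higher (median −0.097), and 1 was lower and 0 higher in the KO (0.065). Pik3cg, the catalytic gamma subunit of PI3-kinase, was at 15.0 FPKM and then 4.78 in WT (−1.46) and at 14.1 and then 4.86 in the KO (−1.36). Its partner Pik3r5 was at 53.3 and then 25.8 in WT (−1.02), and at 54.8 and then 36.0 in the KO (−0.59). Grb2, an adaptor to the Ras pathway, was at 102 FPKM in the KO at 24 h and at 50.3 to 56.4 in the other 3 libraries. It was the single gene of the list past 2-fold between genotypes (1.00, at the limit).

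Among 17 negative regulators, 6 were past 2-fold higher and 1 lower in WT (median 0.49), and 6 were higher and 0 lower in the KO (0.40). The feedback inhibitor Socs1 was at 0.43 and then 18.7 FPKM in WT (3.79) and at 1.02 and then 14.7 in the KO (2.96). Cish, another SOCS-box protein, went from 0.18 to 11.5 in WT (3.41) and from 0.10 to 8.93 in the KO (3.17). The adaptor gene Dok2 was at 18.0 and then 126 FPKM in WT (2.74), and at 24.6 and then 159 in the KO (2.64). Cblb, a ubiquitin ligase, was at 7.20 and then 31.0 in WT (1.97) and at 11.3 and then 31.5 in the KO (1.40). The 1 member past 2-fold lower in WT was Socs3 (−1.10), named after its value was seen. In the KO Socs3 was at 2.48 and then 0.79 FPKM (−0.96), just under 2-fold on the FPKM + 1 scale. Genes for limiting the signal therefore lay on both sides. Socs1, Cish, Dok2 and Cblb were higher at 24 h, and Ptpn6 of the chain itself was lower.

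In the list of 9 STAT6 cofactors 1 gene was past 2-fold lower in each genotype. This was Parp14, a cofactor that is also interferon-induced, at 76.5 and then 24.0 FPKM in WT (−1.63) and at 101 and then 30.9 in the KO (−1.68). The list medians were −0.19 and −0.28. Exons of Parp14, Stat4, Cish and Tgm2 overlap those of other annotated genes, and these values are uncertain to that extent. Of 6 other JAK and STAT genes described, 1 was past 2-fold lower and 0 higher in each genotype, Stat4 in WT and Stat2 in the KO (medians −0.35 and −0.30).

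Other cytokine receptor chains were described to set Il4ra and Il13ra1 beside similar genes. The list held 20 genes, of which Tslp encodes a ligand and was not kept. In WT 16 chains were kept, of which 3 were past 2-fold lower and 1 higher (median −0.20). In the KO 1 was lower and 1 higher (−0.23). Il10ra, the ligand-binding chain for IL-10, was at 56.0 and then 21.4 FPKM in WT (−1.35) and at 60.2 and then 26.2 in the KO (−1.17). Il21r, which shares the gamma chain, was at 19.3 and then 7.61 in WT (−1.23). In the KO Il21r was at 13.2 and then 6.16 (−0.99), just under 2-fold on the FPKM + 1 scale. Il6st, the signalling chain of the IL-6 family, was at 23.1 and then 76.1 in WT (1.68) and at 25.0 and then 75.0 in the KO (1.55). Il10rb, the partner of Il10ra, stood apart in the WT library of 24 h, at 25.7 FPKM against 55.2 to 64.6 in the other 3 (KO minus WT at 24 h, 1.07). Its exons overlap those of 1 other annotated gene, so its value is uncertain. Among the kept chains in WT, the difference of Il13ra1 (−2.07) was below that of every chain on this list.

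**Figure D5:**
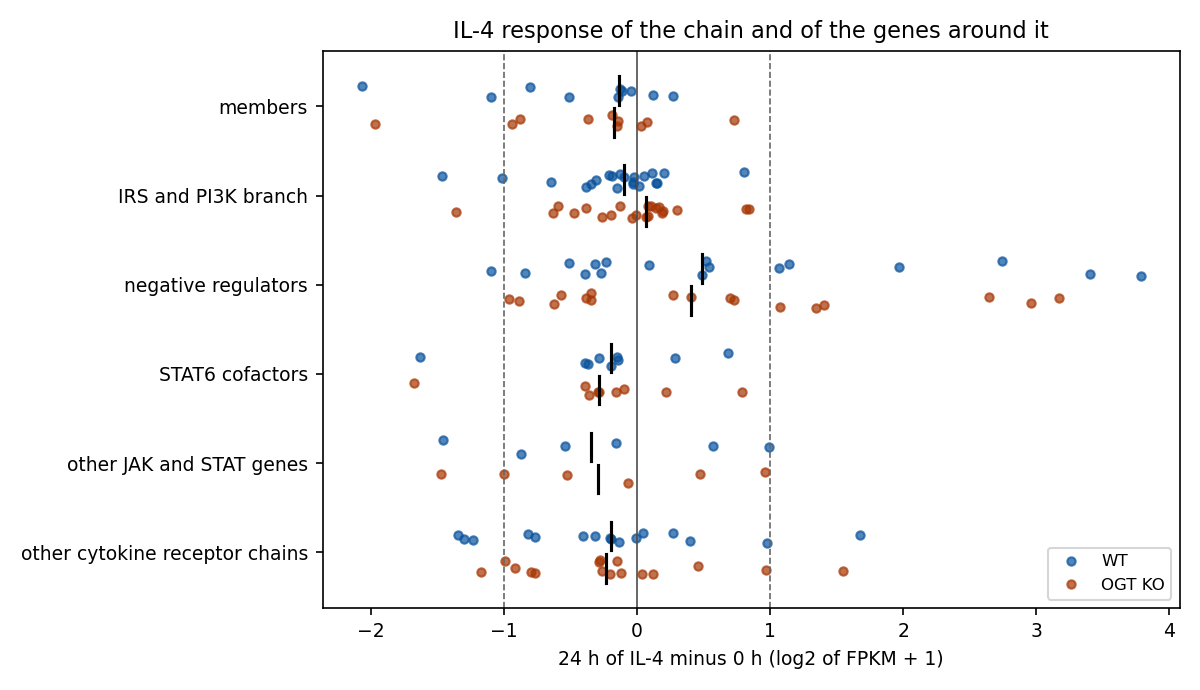
IL-4 difference (24 h minus 0 h, log2 of FPKM + 1) of each kept gene of the chain and of 5 lists around it, WT in blue and KO in brown; black ticks are list medians, dashed lines mark 2-fold and vertical scatter within a row has no meaning. The members reach down to −2.07, and the highest points are negative regulators such as Socs1 at 3.79.

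Well-known IL-4 target genes were past 2-fold higher in 19 of 23 cases in WT and 18 of 23 in the KO, with medians of 2.94 and 3.08. Many of these were known from earlier results of these data, so the list is no independent measure of signalling. Retnla, the gene of a resistin-like secreted factor, was at 2.17 and then 12961 FPKM in WT (12.00) and at 2.23 and then 14904 in the KO (12.17). Arg1, the enzyme arginase 1, was at 0.12 and then 240.4 in WT (7.75) and at 0.066 and then 219 in the KO (7.69). The low Il4ra and Il13ra1 levels at 24 h thus stood beside high levels of these target transcripts in both genotypes. Egr2, a zinc finger transcription factor, was the 1 target past 2-fold lower in the KO at each time. It was at 9.69 FPKM in WT and 3.83 in the KO at 0 h, and at 61.1 and 14.1 at 24 h (KO minus WT, −1.15 and −2.04). In the difference between responses Ccl22 (1.42) and Dcstamp (1.12) were past 2-fold higher in the KO and Tgm2 (−1.09) was past 2-fold lower.

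Genes with the most similar pattern were sought for the 2 members with the widest range, Il13ra1 and Il4ra, over the 4 libraries and 6778 genes. Likeness was the root mean square distance between log2 profiles, each centred on its own mean. For Il13ra1 the nearest genes were Cd302 (distance 0.035), a C-type lectin gene, the pseudogene Nxpe1-ps (0.039) and Fgd2 (0.043). For Il4ra they were Kif13b (0.014), Rab9 (0.020) and Pacs1 (0.021). Cd302, for example, was at 51.5 and 52.5 FPKM at 0 h and at 11.0 and 13.4 at 24 h, WT first. Il13ra1 itself was at 7.84 and 8.34 and then at 1.10 and 1.38, where the added 1 narrows its difference. Its matches therefore apply to the FPKM + 1 scale, and nearest genes were not sought on FPKM alone. Within a distance of 0.1 lay 16 genes for Il13ra1 and 79 for Il4ra, so near matches over 4 libraries were not rare.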

How the data were processed

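The authors' table holds FPKM for 52550 Ensembl genes in 4 libraries, 1 per group, as deposited. The table names no unit, and FPKM was read from the values. STAR, StringTie and GRCm38 are named in the submitters' processing notes. The SMARTer mRNA-Seq kit was used on 1 µg of RNA, per the labels' protocols. Strand setting and annotation release were not given in the sources used here.

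Symbols (52403 genes matched, 147 kept their identifier), positions (counted from 1) and exon overlaps came from GENCODE M21 (GRCm38), and promoter windows from RefSeq (GRCm38.p6). Differences were log2 ratios of FPKM + 1 over 5 comparisons, computed with pandas 2.3.3 and numpy 2.4.6. A pseudocount of 1 and a filter of 1 FPKM were used, with 6 alternatives. Fragments were estimated from FPKM times length in genes of 1 exon and at least 1000 bp, as the most common small product, using the shortest basic coding transcript of each member. The depth itself is not stated. The code was tested on simulated data.

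The members, gene lists and limits were chosen with earlier results of these data known. Named genes are the members, Ogt, up to 4 genes per list and comparison past 2-fold, all of a list of 3, and the 3 nearest profiles of 2 members. Protein sequences of the members were not analysed here, and 2 genes of the lists are not reported here.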

Additional observations from a re-analysis of the deposited data

Results flagged for a closer look

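For 3 members the differences had opposite signs in the 2 groups compared, and none of these differences was tested, since each rests on 1 library per group. For Il4ra the KO minus WT difference was −0.075 at 0 h and 0.077 at 24 h of IL-4, and the 0 h value came to −0.0026 with libraries rescaled by median ratio. For Irs2 it was −0.14 at 0 h and 0.31 at 24 h, with the KO 24 h library highest. For Stat6 it was −0.021 at 0 h and 0.057 at 24 h, and the IL-4 difference was −0.047 in WT and 0.031 in the KO, all within the estimated counting error. With that rescaling the Stat6 value at 0 h came to 0.053 and its IL-4 difference in the KO to −0.017, so neither pair of signs stayed opposite.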

How the results depend on the processing

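Of 50 member differences, 46 kept their sign under all alternatives in which they were computed, and the 4 exceptions were those of Stat6 (KO IL-4 difference, and genotype at 0 h), Ptpn1 and Tyk2 (genotype at 0 h). None was reversed among those past 1.5-fold. With a pseudocount of 5, Il4ra in WT came to −0.94, so 1 member instead of 2 was past 2-fold lower there. With libraries rescaled to a total of 1000000, Il4ra in the KO came to −1.02, and 2 members instead of 1 were past 2-fold lower. Il13ra1 stayed past 2-fold lower in WT, from −2.72 (pseudocount of 0.1) to −1.07 (pseudocount of 5), and in the KO, from −2.51 to −1.06. Irs2 in the KO ranged from 0.39 to 0.91 under those pseudocounts. Jak3 in WT, under 1.5-fold in the main setting, was past 1.5-fold lower with a pseudocount of 0.1 (−0.63) and on the rescaled total (−0.65). A filter at 5 FPKM leaves out Jak3 and Irs2 in all 5 comparisons, and Il13ra1 at 24 h between genotypes.

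Counts over all genes moved with the pseudocount and scale, and the cause was not tested. The WT response had 557 higher and 732 lower genes, against 846 and 1128 with a pseudocount of 0.1, 253 and 304 with 5, and 853 and 1298 on the rescaled total. The KO response had 597 and 693, against 963 and 1068, 272 and 320, and 948 and 1260. Between genotypes, the counts at 0 h were 101 and 100, against 202 and 236, 23 and 20, 300 and 341, and 52 and 54 with a filter at 5 FPKM. At 24 h they were 94 and 71, against 208 and 180, 23 and 16, 286 and 275, and 55 and 38. For the difference of responses they were 152 and 140, against 373 and 291, 36 and 36, 483 and 439, and 77 and 64. No paired analysis was possible because each group has 1 library, and no library could be left out for the same reason.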
